A study of Rattus norvegicus with 6 samples.

Results

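The genes described here are 10 members of the NF-κB system of the rat: the subunits Nfkb1, Nfkb2, Rela and Relb, the IκB family genes Nfkbia, Nfkbie and Nfkbiz, and the target genes Tnfaip2, Tnfaip3 and Birc3. They were chosen by name, with chemokines left out, and each matched 1 of the 18923 genes in the deposited tables. All 10 passed the filter on low counts, as did 13438 genes in all. RNA-Seq compared primary wild-type chondrocytes of newborn female Sprague-Dawley rats with and without all-trans retinoic acid (RA), a metabolite of vitamin A and ligand of the nuclear RAR receptors. Control cells (CON) spent 24 h in high-glucose DMEM with 10% FBS, and RA cells spent 24 h in that medium with 1 μM RA. For general culture the methods name DMEM with 10% FBS and 1% penicillin-streptomycin. There were 3 samples per group, which the methods call biologically independent, and the cells were at passage 1 or 2. Neither the methods nor the labels tie a sample to an animal or a culture, so p-values measure the spread between these samples.

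NF-κB is a family of dimeric transcription factors that are held in the cytoplasm by IκB proteins until inflammatory receptors activate the IKK kinases, which mark the IκB proteins for destruction. In the canonical arm, dimers of RelA and the p50 product of Nfkb1 then enter the nucleus, while in the non-canonical arm the Nfkb2 precursor is processed to p52, the partner of RelB. Both arms induce their own inhibitors, so the transcripts of Nfkbia, Nfkbie and Tnfaip3 are widely read as feedback of the pathway, and in cartilage the pathway is known for the response of chondrocytes to interleukin-1 and TNF.

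Among the 10 genes, only Tnfaip2 rose in RA, by 2.23-fold (95% interval 1.91 to 2.60). The other 9 genes, among them all 4 subunits and all 3 IκB family genes, did not pass the test. A differentially expressed gene (DEG) had a Benjamini-Hochberg adjusted p below 0.05 over all tested genes in edgeR's quasi-likelihood test and an absolute log2 fold change above 0.58, a rise of 1.49-fold or the equal fall. SE is the standard error of a log2 fold change. By this rule 2.67% of all tested genes were higher in RA, and 4.96% were DEGs in either direction, against 1 of the 10 genes here. Lower DEGs made up 2.29% of all tested genes, and none of the 10 was one by edgeR, DESeq2 or limma, nor did any have an unadjusted p under 0.05 with a negative change. By adjusted p alone, without the fold, 9.82% of all tested genes passed, and the 1 gene of the set was again Tnfaip2. In a list of 10 genes a single DEG is the least that can be counted, so its share is not read as a property of the list.

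The promoters are shown first, because feedback genes of the pathway are known for κB elements near their starts. RefSeq promoter sequences of the assembly GRCr8 were at hand for 8 of the 10 genes, the exceptions being Relb and Birc3. The 250 bases before the annotated start were searched on both strands for the κB consensus in its usual degenerate form, for the broader pattern GGGNNNNNCC that contains it, and for retinoid direct repeats. A repeat was any pair of half-sites in the same direction, spaced by 1, 2 or 5 bases. The half-site was AGGTCA or the common variant AGTTCA, or their forms that begin with G, namely GGGTCA besides the form GGTTCA. The κB consensus was matched in 5 of the 8 genes (Nfkb2, Nfkbia, Nfkbie, Nfkbiz and Tnfaip3), and in 3.54% of 33465 rat promoters of the same length. For 4 genes the 250 bases are printed 5′ to 3′ on the strand of the gene, with matches to the κB consensus in capitals: the gene that rose and 3 with κB matches that did not pass the test.
Tnfaip2: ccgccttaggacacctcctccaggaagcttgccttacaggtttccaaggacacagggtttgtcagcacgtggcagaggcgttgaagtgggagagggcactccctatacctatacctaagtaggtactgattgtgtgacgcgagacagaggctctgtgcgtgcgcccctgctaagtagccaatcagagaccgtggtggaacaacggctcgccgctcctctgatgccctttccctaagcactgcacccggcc
Nfkbia: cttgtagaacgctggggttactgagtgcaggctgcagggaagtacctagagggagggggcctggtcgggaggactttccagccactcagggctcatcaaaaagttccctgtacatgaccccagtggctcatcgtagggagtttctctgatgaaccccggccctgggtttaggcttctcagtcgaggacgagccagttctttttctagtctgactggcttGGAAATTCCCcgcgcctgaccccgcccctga
Nfkb2: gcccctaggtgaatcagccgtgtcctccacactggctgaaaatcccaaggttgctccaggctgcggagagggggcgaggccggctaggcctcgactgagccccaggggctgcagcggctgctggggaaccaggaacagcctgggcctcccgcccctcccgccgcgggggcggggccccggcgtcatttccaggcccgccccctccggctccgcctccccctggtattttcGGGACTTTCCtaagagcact
Tnfaip3: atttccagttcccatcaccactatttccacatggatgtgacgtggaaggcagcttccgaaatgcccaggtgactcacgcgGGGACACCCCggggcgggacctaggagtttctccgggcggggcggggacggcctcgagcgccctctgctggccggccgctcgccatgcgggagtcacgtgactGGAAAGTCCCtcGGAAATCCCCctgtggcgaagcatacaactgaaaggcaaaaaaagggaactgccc
These windows lie at chr6:136297832-136298081 on the plus strand for Tnfaip2, chr6:78597073-78597322 on the minus strand for Nfkbia, chr1:255108124-255108373 on the plus strand for Nfkb2 and chr1:15543980-15544229 on the minus strand for Tnfaip3. No other RefSeq gene overlaps them.

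In Nfkb2 the match GGGACTTTCC spanned bases 20 to 11 before the start, and in Nfkbia the match GGAAATTCCC, which reads in the reverse direction, spanned bases 31 to 22. Tnfaip3 held 3 matches, the most among the 8 genes, at bases 170 to 161, 67 to 58 and 55 to 46. The window of Nfkbie held GGGGGATTCC at bases 164 to 155, and that of Nfkbiz held GGGAATTTCC at bases 13 to 4. No window of Nfkb1, Rela or Tnfaip2 matched the consensus. The broader pattern was found in 7 of the 8 genes, all but Rela, and in 42.32% of all promoters. No direct repeat was found in any of the 8 windows, and 0.65% of all promoters held one. A match says only that the letters are there, and the absence of one concerns these windows alone.

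**Figure D1:**
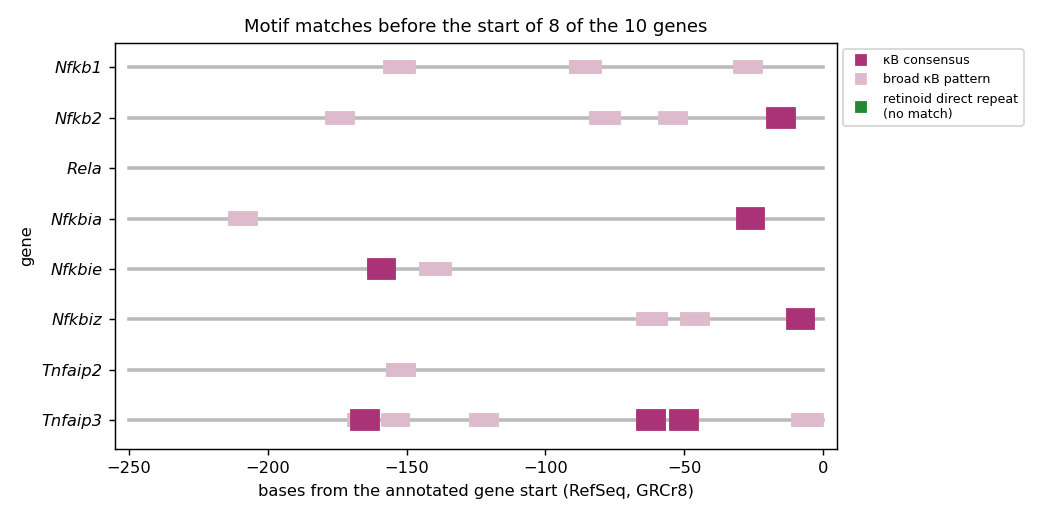
Position of motif matches in the 250 bases before the annotated start of 8 of the 10 genes (rows), with bases from the start on the horizontal axis. Dark blocks are matches to the κB consensus, found in 5 genes, pale blocks are matches to the broader pattern, found in 7, and no retinoid direct repeat was found.

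Total counts ran from 29370025 to 38007486 reads per sample, and the 10 genes together took between 6348 and 8835 reads. Reads per member ran from 34, for Tnfaip3 in RA sample 1, to 2766, for Rela in CON sample 3. CON sample 1 stood farthest from its group: compared as counts, it differed from the other CON samples by a chi-square of 39.4 and 63.5 per degree of freedom, where the other pairs within a group had 6.40 to 8.13. The chondrocyte label held: all 12 listed cartilage genes were expressed, with Col2a1 at 5420.1 ± 961 FPKM in CON and 3185.3 ± 141 in RA (SD of n = 3 samples per group), and 10 of the 12 were DEGs, all lower in RA. Of 8 tested fibroblast and perichondrium genes, Postn was a DEG, lower in RA, with 12.2 ± 1.72 FPKM in CON and 5.04 ± 0.355 in RA. Col1a1 had the highest level, with 2976 ± 511 and 3478 ± 111. Of the 8, 5 had a log2 fold change above 0, and the median was 0.17. The largest rise among them was that of Pdgfra, a log2 fold change of 0.44, from 50.0 ± 0.490 to 68.4 ± 2.65 FPKM. Of 10 retinoid response genes, 6 were DEGs higher in RA, 1 (Rarres1) was a DEG lower in RA and 3 were not DEGs. Cyp26b1, whose product breaks down retinoic acid, went from 1.51 ± 0.187 to 9.52 ± 0.916 FPKM. FPKM divides a count by gene length and by the depth of its sample, so levels of different genes are compared on that scale. In bulk samples, fewer cells of a type and less RNA per cell cannot be told apart.

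Levels differed widely among the members, and the subunits did not stand together. Rela, the gene of the main transactivating subunit p65, was highest in both groups, followed by Nfkb1 and then by the inhibitor gene Nfkbia. In CON the order went on with Nfkb2, Nfkbie, Tnfaip2, Birc3, Relb, Tnfaip3 and Nfkbiz. Neighbors in that order did not overlap between samples, except Birc3 with Relb and Tnfaip3 with Nfkbiz. In RA the order differed in 1 place: Tnfaip2 stood above Nfkbie, and its values overlapped those of Nfkb2 above it. The levels of Tnfaip3 and Nfkbiz overlapped in RA too. Over the 6 samples Rela lay at percentile 79.8 of the mean FPKM of tested genes and Nfkbiz at percentile 12.5, so the list runs from well expressed to weakly expressed genes.

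**Figure D2:**
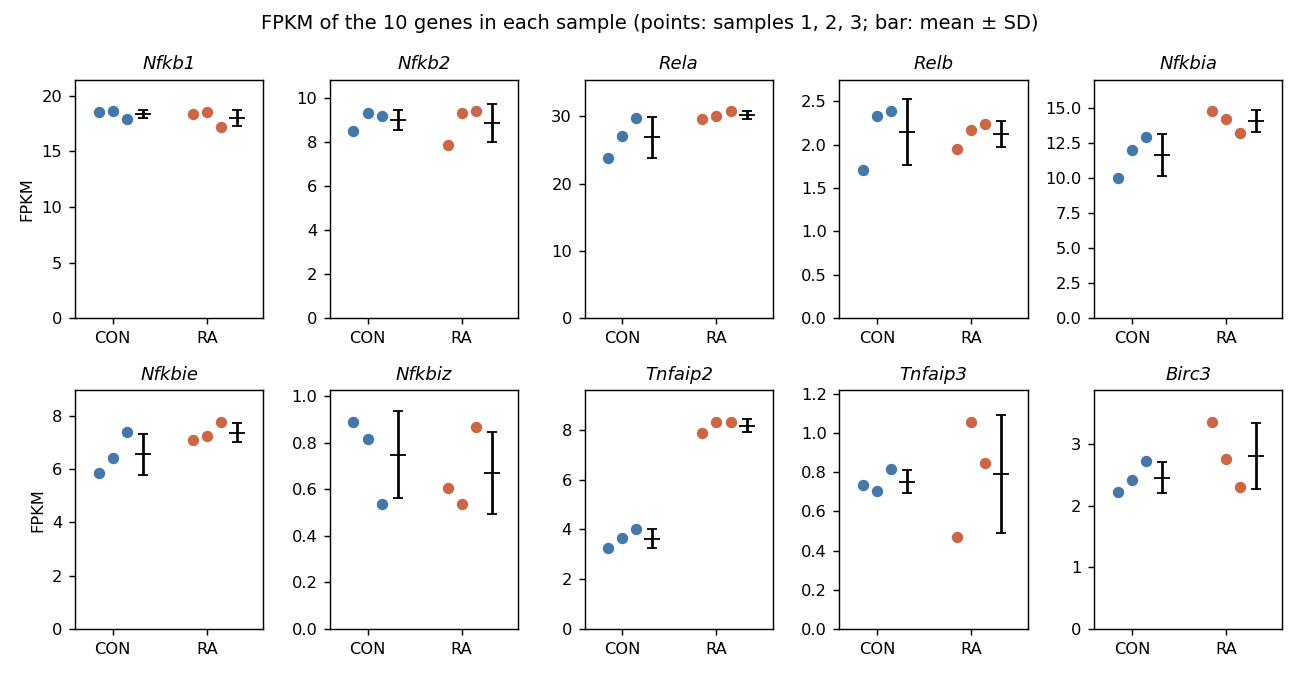
FPKM of each of the 10 genes in CON samples 1, 2 and 3 (blue points, left to right) and RA samples 1, 2 and 3 (orange points), with the mean and SD of each group as black bars. All axes start at 0. The groups stand apart for Tnfaip2, at 3.23 to 4.01 FPKM in CON and 7.89 to 8.33 in RA, and by a smaller gap for Nfkbia, and they overlap for the other 8 genes.

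Nfkb1 (ENSRNOG00000023258) encodes p105, the precursor of p50. Its level was 18.5, 18.6 and 17.9 FPKM in CON samples 1, 2 and 3, and 18.3, 18.5 and 17.2 FPKM in RA samples 1, 2 and 3. The 6 samples lay close together, and the groups overlapped. Between the groups the log2 fold change of Nfkb1 was -0.04 (SE 0.0594, edgeR adjusted p = 0.729), with a 95% interval from 0.886-fold to 1.07-fold, the narrowest among the 10 genes.

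Rela (ENSRNOG00000030888) had 23.8, 27 and 29.8 FPKM in CON and 29.6, 30.1 and 30.8 FPKM in RA. The RA samples lay close to CON sample 3, and CON sample 1 was the low value. Its log2 fold change was 0.15 (SE 0.0900, edgeR adjusted p = 0.343), or 0.07 without CON sample 1 and 0.25 without CON sample 3. The 95% interval of the change ran from 0.964-fold to 1.28-fold.

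The non-canonical subunits showed the same lack of separation. Nfkb2 (ENSRNOG00000019311), the gene of the p52 precursor, had 8.46, 9.28 and 9.18 FPKM in CON and 7.86, 9.31 and 9.40 FPKM in RA. RA sample 1 was its lowest value, and the other RA samples lay just above the highest CON sample. For Nfkb2 the log2 fold change was -0.03 (SE 0.0929, edgeR adjusted p = 0.867), with an interval from 0.844-fold to 1.13-fold, and it was 0.05 without RA sample 1. Relb (ENSRNOG00000033235) had 1.70, 2.33 and 2.39 FPKM in CON and 1.95, 2.17 and 2.24 FPKM in RA, so that the RA samples fell inside the CON range. Its log2 fold change was -0.03 (SE 0.175, edgeR adjusted p = 0.938), with an interval from 0.742-fold to 1.29-fold, and its sign turned when CON sample 2 (0.03), when CON sample 3 (0.07) and when RA sample 1 (0.03) was removed. Rel, the fifth subunit gene, which is no member of the set, had 1.54 ± 0.212 FPKM in CON and 1.21 ± 0.143 in RA (SD of n = 3 samples per group). The RA samples of Rel lay below the CON samples, with a log2 fold change of -0.35 (edgeR adjusted p = 0.313).

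Ratios of FPKM within a sample, which need no scaling between samples, were taken for 3 pairs of subunits. The ratio of Nfkb2 to Nfkb1 was 0.489 ± 0.0288 in CON and 0.492 ± 0.0593 in RA (SD of n = 3 samples per group). The ratio of Relb to Rela was 0.0793 ± 0.00734 in CON and 0.0702 ± 0.00370 in RA. The ratio of Nfkb1 to Rela was 0.690 ± 0.0888 in CON and 0.598 ± 0.0340 in RA. The first difference was smaller than either SD, the other two were larger than both SDs, and all 3 ratios overlapped between the groups.

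Nfkbia (ENSRNOG00000007390) encodes IκBα, the fast-responding inhibitor that is both degraded and re-made when the pathway is active. Its level was 9.99, 12 and 12.9 FPKM in CON and 14.8, 14.2 and 13.2 FPKM in RA. All RA samples lay above all CON samples, with a narrow gap between CON sample 3 and RA sample 3. Such a separation upward was found in 18.9% of all tested genes, and in 2 of the 10 genes here, the other being Tnfaip2. A separation in either direction was found in 32.2% of all tested genes and in the same 2 of the 10, and one downward in 13.3% and in none. Counting error alone put CON sample 3 between 12 and 13.8 FPKM and RA sample 3 between 12.2 and 14.3 FPKM (exact Poisson 95% intervals), so these samples were not told apart at this depth. The log2 fold change of Nfkbia was 0.26 (SE 0.110, edgeR unadjusted p = 0.0457 and adjusted p = 0.199), an interval from 1.00-fold to 1.43-fold. An unadjusted p under 0.05 was found for 24% of all tested genes. Without CON sample 1 the log2 fold change was 0.16, and without CON sample 3 it was 0.35. Relative to Rela, the level of Nfkbia was 0.433 ± 0.0128 in CON and 0.467 ± 0.0351 in RA, with RA sample 3, at 0.430, inside the CON range.

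Nfkbie (ENSRNOG00000019907) encodes IκBε, a slower inhibitor of the same kind. Its 5.83, 6.43 and 7.37 FPKM in CON overlapped the 7.09, 7.25 and 7.78 FPKM in RA through CON sample 3 alone. Its log2 fold change was 0.16 (SE 0.12, edgeR adjusted p = 0.473), with an interval from 0.920-fold to 1.35-fold. It was 0.08 without CON sample 1 and 0.26 without CON sample 3.

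Nfkbiz (ENSRNOG00000031163) encodes the atypical nuclear protein IκBζ, which co-activates a subset of target genes. It was a weakly expressed member, with 0.892, 0.818 and 0.539 FPKM in CON and 0.607, 0.538 and 0.869 FPKM in RA, or 64 to 111 reads per sample. CON sample 3 and RA sample 3 were each on the far side of their groups, and the groups overlapped across nearly the whole range. Its log2 fold change of -0.16 (SE 0.257, edgeR adjusted p = 0.742) had a wide interval, from 0.594-fold to 1.34-fold. It lay at -0.35 without CON sample 3, at -0.40 without RA sample 3 and at -0.02 without CON sample 1.

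Tnfaip3 (ENSRNOG00000049517) encodes A20, the ubiquitin-editing enzyme that shuts the pathway off. It had 0.733, 0.705 and 0.818 FPKM in CON and 0.468, 1.06 and 0.846 FPKM in RA. The CON samples lay together, and the RA samples spread to both sides of them. Counting error put RA sample 1, with 34 reads, between 0.324 and 0.655 FPKM and RA sample 2, with 76 reads, between 0.834 and 1.32 FPKM, and these intervals did not meet. For Tnfaip3 the log2 fold change was 0.06 (SE 0.297, edgeR adjusted p = 0.927), or -0.21 with RA sample 2 removed and 0.33 with RA sample 1 removed. Its interval, from 0.650-fold to 1.67-fold, was the widest of the 10 on the log2 scale and reached past the DEG threshold in both directions.

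Birc3 (ENSRNOG00000005731) encodes cIAP2, a ubiquitin ligase of the TNF receptor complex. It had 2.22, 2.42 and 2.72 FPKM in CON and 3.36, 2.75 and 2.30 FPKM in RA. RA sample 1 was the highest and RA sample 3 lay within the CON range. The log2 fold change was 0.18 (SE 0.170, edgeR adjusted p = 0.569), with an interval from 0.864-fold to 1.48-fold, and it was 0.03 without RA sample 1.

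Tnfaip2 (ENSRNOG00000010165), a TNF-inducible gene whose product is known for its part in tunneling nanotubes and vesicle traffic, was the exception. It had 3.23, 3.65 and 4.01 FPKM in CON and 7.89, 8.29 and 8.33 FPKM in RA, from 377 to 578 reads per sample in CON and 889 to 979 in RA. The lowest RA sample was far above the highest CON sample, and the counting intervals of these samples, 3.69 to 4.35 and 7.38 to 8.42 FPKM, did not meet. The log2 fold change of Tnfaip2 was 1.16 (SE 0.0978, edgeR adjusted p = 2.30e-04). Its absolute log2 fold change lay at percentile 97.1 of all tested genes, whereas that of Nfkbia lay at percentile 69.4 and those of the other 8 genes between percentiles 11.2 and 55.1. Within each sample, the FPKM of Nfkbia was 3.09, 3.30 and 3.22 times that of Tnfaip2 in CON and 1.87, 1.71 and 1.59 times in RA. Tnfaip2 kept its call when any 1 of the 6 samples was left out, between 1.07 and 1.24, the lower value being that without CON sample 1. Retinoic acid is known to induce this gene in promyelocytic leukemia cells, which is background and was not tested here.

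**Figure D3:**
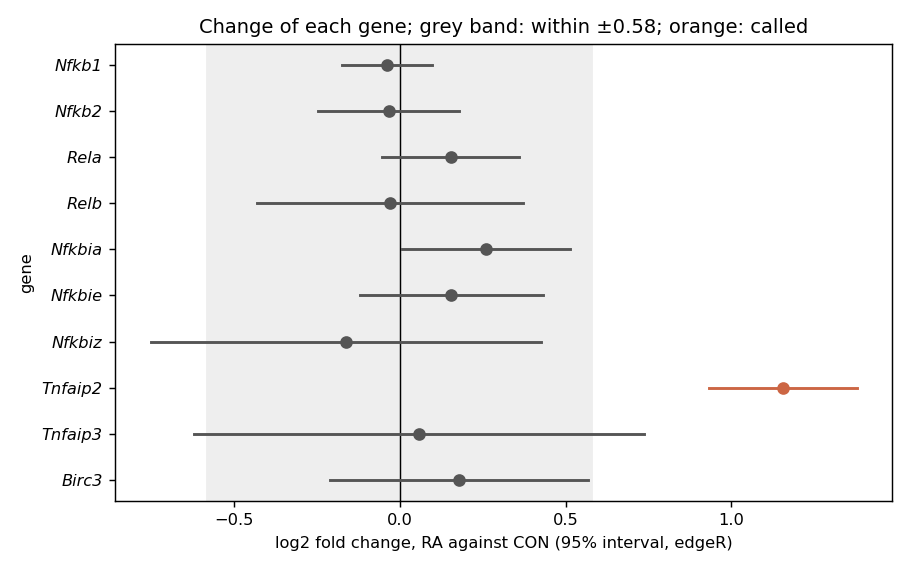
Log2 fold change of RA against CON for each of the 10 genes (points) with 95% intervals from edgeR (lines). The grey band marks changes within 0.58 in either direction. Tnfaip2 lies outside the band with its whole interval, from 0.93 to 1.38, and of the other 9 intervals those of Nfkbiz and Tnfaip3 leave the band.

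Taking the 9 genes that did not pass the test, the 95% intervals of 7 lay within the DEG threshold in both directions: Nfkb1, Nfkb2, Rela, Relb, Nfkbia, Nfkbie and Birc3. The interval of Nfkbiz reached past the threshold for a fall and that of Tnfaip3 past it in both directions. The median log2 fold change of the 10 genes was 0.11, against -0.01 over all tested genes, and 6 of the 10 were above 0, against 48.9% of all tested genes. CON sample 1 was the lowest, sample 2 the middle and sample 3 the highest of the CON samples for 6 of the 10 genes (Rela, Relb, Nfkbia, Nfkbie, Tnfaip2 and Birc3), an order found in 23.5% of all tested genes. The part of this shared order in the values above was not tested.

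**Figure D4:**
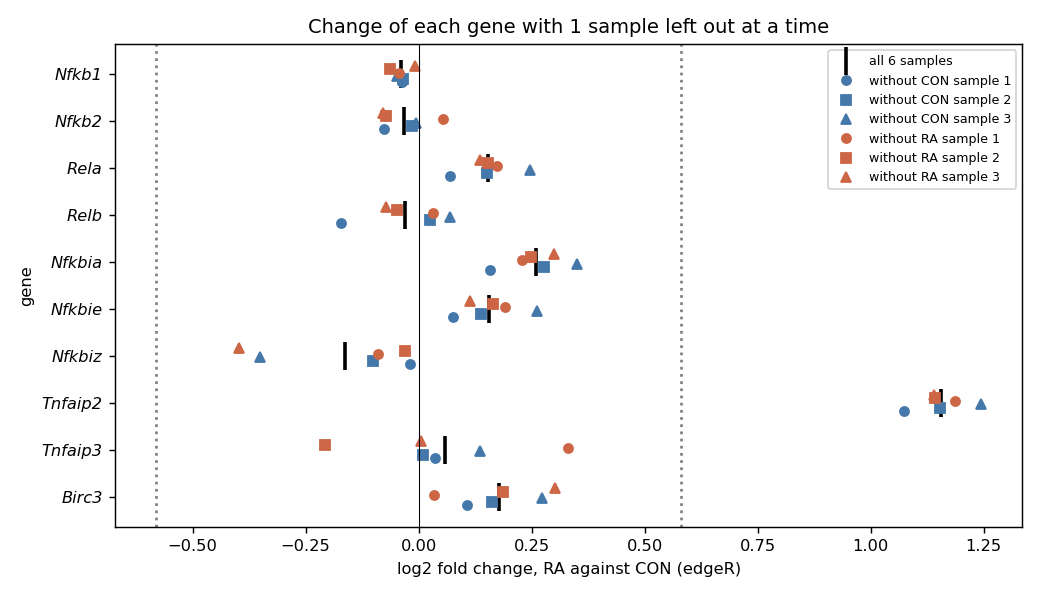
Log2 fold change of each gene with all 6 samples (black bars) and with 1 sample left out (points, blue where a CON sample and orange where an RA sample was left out). Dotted lines mark 0.58 in either direction. Tnfaip2 stays between 1.07 and 1.24, Nfkbia between 0.16 and 0.35, and Tnfaip3 ranges from -0.21 to 0.33.

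The genes around the members were described by lists of pathway role, each without the 10 members. Of 87 listed genes, 76 were matched and 66 tested; 4 of the 66 were DEGs, all higher in RA. Of all tested genes, 2.67% were DEGs higher in RA and 4.96% DEGs in either direction. The median log2 fold change of the 66 genes was 0.10, against -0.01 over all tested genes. Of the 66, 47 were above 0, against 48.9% of all tested genes. All RA samples lay above all CON samples for 19 of the 66 and below them for 4. The shares over all tested genes were 18.9% and 13.3%. The 4 DEGs were the receptor genes Tnfrsf1b and Tnfrsf12a and the target genes Lcn2 and Plau.

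Receptors and ligands come first in the pathway. Of 9 tested receptor genes, 2 were DEGs, and their median log2 fold change was 0.23. Tnfrsf1b, the gene of TNF receptor type 2, rose from 3.28 ± 0.400 to 5.38 ± 0.387 FPKM (SD of n = 3 samples per group), a log2 fold change of 0.70 (SE 0.122, edgeR adjusted p = 0.00844). It was no longer a DEG without RA sample 3, where the log2 fold change was 0.66. Tnfrsf12a, the gene of the TWEAK receptor Fn14, went from 94.5 ± 7.0 to 143.4 ± 1.09 FPKM, a log2 fold change of 0.59 (edgeR adjusted p = 0.00133). This value lies at the threshold, and the call was lost without CON sample 1 (0.53) and without RA sample 2 (0.58). Il1r1, the gene of the signaling interleukin-1 receptor, went from 7.45 ± 0.463 to 11.1 ± 0.198 FPKM, with an adjusted p of 0.00125 (edgeR) and a log2 fold change of 0.57, just under the threshold, and was a DEG without CON sample 2 (0.60). Tnfrsf1a, the gene of TNF receptor type 1, was abundant, at 110.2 ± 3.88 FPKM in CON and 107.8 ± 2.47 in RA, and its log2 fold change was -0.04 (edgeR adjusted p = 0.689).

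Of 10 listed ligands, 5 were matched. Tnfsf12, the gene of TWEAK, was the 1 ligand that passed the filter, at 14.5 ± 1.48 FPKM in CON and 16.1 ± 1.88 in RA (log2 fold change 0.15, edgeR adjusted p = 0.491). Il1b, the interleukin-1β gene, had 0 reads in each CON sample, which allows up to 3 reads or 0.0789 to 0.0994 CPM per sample, and 1 read in all RA samples together. Il1a had 1 read in all 6 samples, in CON sample 1, and Tnf was not analysed here. Il6, a target cytokine, had 4 to 9 reads in CON and 5 to 25 reads in RA and was not tested.

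The signaling core did not pass the test. None of the 23 tested IKK and adaptor genes was a DEG by edgeR, by DESeq2 or by limma on log2(FPKM + 0.1). An unadjusted p under 0.05 was found for 2, 3 and 4 of them, against 24% of all tested genes by edgeR. The median log2 fold change of the 23 genes was 0.04. IKKβ is encoded by Ikbkb, with 10.3 ± 0.392 FPKM in CON and 11.1 ± 0.399 in RA and a log2 fold change of 0.10 (edgeR adjusted p = 0.421). Chuk, the gene of IKKα, had a log2 fold change of -0.25 (edgeR adjusted p = 0.224), and -0.33 to -0.12 with 1 sample left out. Ikbkg, the gene of the scaffold NEMO, had a log2 fold change of -0.01 (edgeR adjusted p = 0.983). Map3k14, the gene of the NIK kinase that drives the non-canonical arm, had 2.65, 2.95 and 3.00 FPKM in CON and 3.73, 3.54 and 3.43 FPKM in RA. Its groups did not overlap, but its log2 fold change of 0.30 had an adjusted p of 0.0928 (edgeR). Birc2, which encodes the cIAP1 ligase that keeps NIK low, had a log2 fold change of -0.13 (edgeR adjusted p = 0.446), and -0.18 to -0.06 with 1 sample left out.

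The other IκB genes and negative regulators gave no DEG among 13 tested, by edgeR, DESeq2 or limma on log2(FPKM + 0.1). An unadjusted p under 0.05 was found for 2, 3 and 1 of them, against 24% of all tested genes by edgeR. By adjusted p alone 1 of the 13 passed, Otud7b (log2 fold change 0.26, edgeR adjusted p = 0.0287), against 9.82% of all tested genes. Nfkbib, the gene of IκBβ, had 12.8 ± 2.75 FPKM in CON and 12 ± 0.410 in RA, a log2 fold change of -0.11 (edgeR adjusted p = 0.700). Bcl3, an IκB protein that binds p50 and p52 dimers, had a log2 fold change of 0.07 (edgeR adjusted p = 0.814). The median over the 13 genes was 0.06.

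The non-chemokine targets had the highest median among the pathway lists, 0.25 over 19 tested genes, and 2 of the 19 were DEGs by edgeR, 2 by DESeq2 and 3 by limma on log2(FPKM + 0.1). An unadjusted p under 0.05 was found for 8, 9 and 9 of the 19 by these tools, all higher in RA. By edgeR 24% of all tested genes had one, in either direction. By edgeR 5 of the 19 had an adjusted p below 0.05, against 9.82% of all tested genes. For 10 of the 19 all RA samples lay above all CON samples, against 18.9% of all tested genes. For 1 of the 19, Icam1, all RA samples lay below all CON samples, against 13.3%. The log2 fold change of Icam1 was -0.12 (edgeR adjusted p = 0.296). Of the 19 changes, 15 were above 0, and the lowest was that of Psmb9, -0.81 (edgeR adjusted p = 0.273), at 11 to 41 reads per sample. Lcn2, the gene of lipocalin-2, went from 9.23 ± 1.79 to 14.1 ± 1.80 FPKM, a log2 fold change of 0.60 (edgeR adjusted p = 0.0488). It lost the call in 5 of the 6 fits with a sample removed: without CON sample 1 (0.52) or CON sample 3 (0.54), and without RA sample 1 (0.62), RA sample 2 (0.68) or RA sample 3 (0.50). Plau, the gene of the urokinase plasminogen activator, rose from 8.64 ± 0.817 to 13.8 ± 0.977 FPKM, a log2 fold change of 0.66 (SE 0.0993, edgeR adjusted p = 0.00428), and kept the call in all 6. Many of these targets also respond to other pathways.

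**Figure D5:**
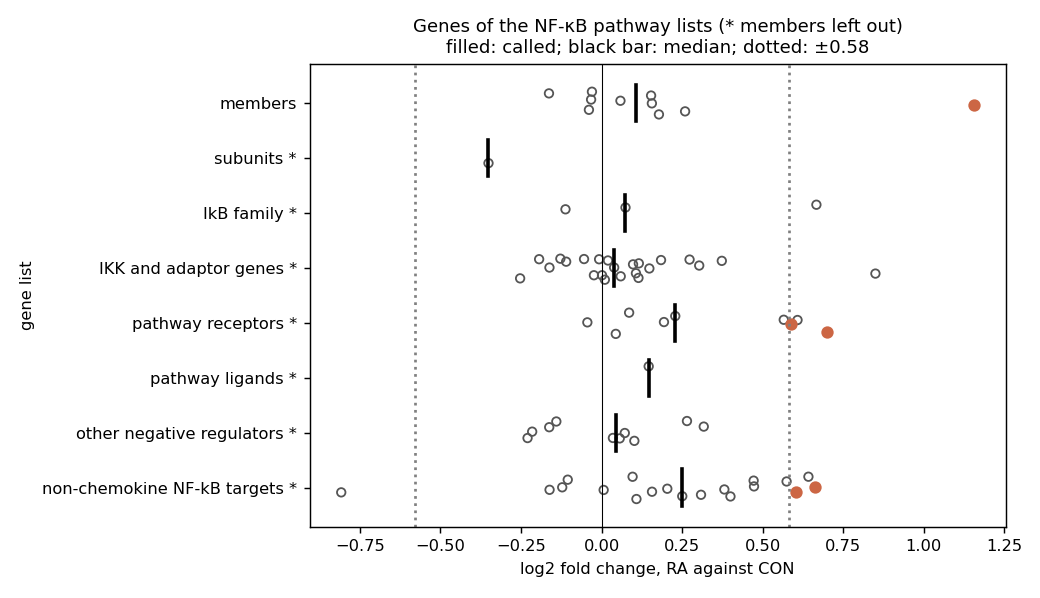
Log2 fold change of RA against CON for the tested genes of each pathway list (open points), with DEGs filled in orange and the median of each list as a black bar. The 10 members form the top row and are left out of the lists below it. The 5 filled points are Tnfaip2, at 1.16, and Tnfrsf1b, Tnfrsf12a, Lcn2 and Plau, at 0.59 to 0.70.

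Tnfaip2 shared its profile with genes outside these lists. Among 11341 other tested genes with a mean FPKM of at least 1, those with the smallest root mean square distance from Tnfaip2 in centered log2 CPM over the 6 samples included Igfbp4 (0.0458), Insyn1 (0.0633), Ace (0.0721) and AABR07030603.2 (0.0769). Igfbp4, a binding protein of insulin-like growth factors, stood at 133.2 ± 16.7 FPKM in CON and 287.3 ± 7.81 in RA (SD of n = 3 samples per group), and Ace, the gene of angiotensin-converting enzyme, at 1.94 ± 0.281 and 4.48 ± 0.200. All of these genes were chosen for that likeness, so their levels are a description.

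Several members are strongly expressed in leukocytes and endothelium, so markers of these cells were read in the same samples. Of 13 macrophage markers, 12 were matched and 5 tested, with no DEG by edgeR or DESeq2. An unadjusted p under 0.05 was found for 1 of the 5, against 24% of all tested genes by edgeR. The summed level of the 12 ran from 14.3 to 16 FPKM in CON and from 17.4 to 18.8 FPKM in RA. Most of it came from Cd14, and the ranges did not overlap. Cd14 and Cd68 were higher in every RA sample than in any CON sample, as were 18.9% of all tested genes. Levels in CON and RA were 12.9 ± 0.834 and 15.3 ± 0.663 FPKM for Cd14 and 1.05 ± 0.125 and 1.28 ± 0.0277 FPKM for Cd68 (SD of n = 3 samples per group). Csf1r had 6 to 23 reads in CON and 15 to 28 in RA, a log2 fold change of 0.91 (edgeR adjusted p = 0.305). The other tested markers went the other way, with log2 fold changes of -0.27 for Lyz2 and -0.22 for Fcer1g (edgeR adjusted p = 0.708 and 0.907). Itgam, which was not tested, had 6 to 8 reads in CON and 2 to 3 in RA. Ptprc and Adgre1 had at most 5 reads and at most 1 read in any sample. Of 10 endothelial markers, 7 were matched and 2 tested, with no DEG by edgeR or DESeq2 and no unadjusted p under 0.05, and Pecam1, Tie1 and Cldn5 were not analysed here. The 7 summed to 5.61 to 8.07 FPKM in CON and 6.32 to 6.85 in RA, most of it from Egfl7, with Cdh5 at 0 or 1 read in every sample and Emcn at 0 in all. Of 9 lymphocyte markers, 6 were matched and none passed the filter, and Cd3e, Cd3d and Ms4a1 were not analysed here. The 6 summed to at most 0.567 FPKM in any sample, with Cd79b at 0 in all. Of 9 skeletal muscle markers, 7 were matched and 4 tested, and 2 were DEGs in opposite directions. Myod1 was higher in RA (log2 fold change 1.93, edgeR adjusted p = 0.0142), on only 4 to 7 reads per sample in CON and 17 to 25 in RA. Tnnt3 was lower (4.71 ± 0.731 to 2.36 ± 0.605 FPKM, SD of n = 3 samples per group, edgeR adjusted p = 0.0214). The 7 summed to 9.69 to 12 FPKM in CON and 9.44 to 11.3 in RA. The sums of the fibroblast list, 3763 to 4952 FPKM in CON and 4852 to 5105 in RA, were made up mostly of Col1a1 and Col3a1 and overlapped between the groups, and those of the cartilage list went from 8858 to 11131 in CON down to 5754 to 6125 in RA. The part of these markers in the values of the members was not tested.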

How the data were processed

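Poly(A) RNA was sequenced from 3 CON and 3 RA samples, grouped by the sample titles. For each sample the authors deposited raw read counts per gene and FPKM. The submitters' processing notes list HISAT2, HTSeq 0.13.5 and the build Rnor_6.0, without roles. Dividing counts by FPKM and by the total count gave each gene the same length in all samples, so the deposited FPKM hold no other normalization between samples. How reads of overlapping genes or copies were assigned, and whether strand was used, is not given in the sources used here.

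Counts were analysed with edgeR 4.0.16 in R 4.3.3 (TMM, filterByExpr with a minimum count of 10, glmQLFit and glmQLFTest, no covariates, all 6 samples). Standard errors came from the F statistic, and 95% intervals from its degrees of freedom. The common biological coefficient of variation was 0.122. Intervals and floors from read counts cover counting error only, and a count of 3 is 0.0789 to 0.102 CPM. Scripts were tested on simulated counts.

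Members, gene lists and tests were chosen with earlier results of these data known. Named genes were the 10 members, each DEG of the pathway lists, 10 core genes fixed by name, up to 4 genes per cell marker list, and the 5 genes closest to Tnfaip2, of which 1 is not reported here. Tnfsf12, the other ligands, Il6, Icam1, Psmb9, Otud7b, Col2a1 and single cell markers outside this rule were picked with their values known. For symbols with several identifiers, the one with the highest mean count was used. Alternatives were other size factors, no TMM, DESeq2 1.42.0, other filters, limma 3.58.1 on log2(FPKM + 0.1) and log2(FPKM + 1), other DEG rules, each sample left out, and the replicate number as a block. Promoter sequences came from RefSeq (GRCr8). No coordinates are given for genes, since the builds differ.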

Additional observations from a re-analysis of the deposited data

How the results depend on the processing

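Tnfaip2 was a DEG under all alternatives run, between 0.99 with limma on log2(FPKM + 1) and 1.24 without CON sample 3 (adjusted p from 2.53e-20 to 0.00306), and no other member was a DEG under any. Over the fits without 1 sample the log2 fold changes were -0.06 to -0.01 for Nfkb1, -0.079 to 0.053 for Nfkb2, 0.07 to 0.25 for Rela, -0.17 to 0.069 for Relb, 0.16 to 0.35 for Nfkbia, 0.08 to 0.26 for Nfkbie, -0.40 to -0.02 for Nfkbiz, -0.21 to 0.33 for Tnfaip3 and 0.03 to 0.30 for Birc3. Signs turned within these ranges for Nfkb2, Relb and Tnfaip3, and, among core genes, for Ikbkg (-0.15 to 0.083), Nfkbib (-0.28 to 0.0095) and Bcl3 (-0.085 to 0.21). The sign of Ikbkg also turned with library size alone (0.0051), with limma on log2(FPKM + 0.1) (0.015) and log2(FPKM + 1) (0.013), and with the replicate block (6.04e-04). The cause was not tested.

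The number of DEGs was 667 of 13438 tested genes, and it moved to 434 with limma on log2(FPKM + 1), to 1017 with an unadjusted p and to 1319 without a fold-change threshold. The number of DEGs among pathway genes outside the members, 4, moved to 2 with limma on log2(FPKM + 1) and to 9 without a fold-change threshold. With each sample left out it ran from 2, without RA sample 3, to 5, and the number over all genes from 480 to 755. With limma on log2(FPKM + 1), Tnfrsf1b and Lcn2 were not DEGs (0.58 and 0.57). Same-numbered CON and RA samples were not shown to be paired (correlations of their deviations 0.0928, -0.0123 and 0.0118). A fit with the replicate block gave 684 DEGs and called the same number of members, 1. Tnfaip3 and Nfkbiz rest on the fewest reads, 34 to 111 per sample.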
